A study of Ananas comosus with 8 samples.

Results

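The genes that remove methyl marks were examined in the pineapple leaf: the DNA glycosylases DME (Aco018501) and ROS1 (Aco018808) and the histone demethylases LDL1 (Aco002795) and LDL2 (Aco009449). These 4 genes were chosen by gene identifier out of 27024 in the deposited expression matrix, and all 4 were found. Their names rest on the homology that the study assigned to Arabidopsis thaliana genes. RNA was sequenced from the photosynthetic green tip of the 'D' leaf in the cultivar MD-2 of Ananas comosus, and from its non-photosynthetic white base. Each tissue had 2 RNA-seq libraries, and the plants shared one cultivar with no treatment or mutation named. The labels give no time of day, and the study's methods state 2 RNA-seq libraries, rather than 3, for the late morning alone. The labels also list 2 bisulfite sequencing libraries of each tissue, which were not analysed here.

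In plants, DNA methylation is removed actively by DNA glycosylases of the DME and ROS1 family, which cut the methylated base out of the strand so that base excision repair can put an unmethylated cytosine in its place. They work against the DNA methyltransferases that copy or newly set the mark. LDL1 and LDL2 are relatives of the mammalian demethylase LSD1, flavin-dependent enzymes that take methyl groups from lysine 4 of histone H3. In Arabidopsis both act with the JmjC demethylase JMJ14 in RNA-directed DNA methylation (RdDM), so that loss of histone methylation and gain of DNA methylation go together there.

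The matrix holds 1 FPKM value (fragment counts divided by transcript length and by the size of the library) for each gene and tissue. No replicates, SD or test therefore stand behind the values below, and no difference can be set against the spread between libraries. FPKM is scaled by transcript length, so genes were ordered within a tissue, although neighbours in the order could not be tested. The study's methods count a gene as expressed when it exceeds 0.5 FPKM. By this threshold 17110 genes were expressed in the green tip, against 18096 in the white base, with medians of 12.8 FPKM in the green tip, against 12.9 FPKM in the white base. The tissue labels were checked against 5 genes chosen here from the longer list of CAM genes that the study examined. They were 3 beta carbonic anhydrases, a PEP carboxylase and a PPDK. The other CAM genes of the study were not part of this check and need not go the same way. All 5 were higher in the green tip by 2-fold or more, although with other scalings the smallest differences fell under 2-fold. The PPDK gene Aco024818, which regenerates the substrate of PEP carboxylase, had 396 FPKM in the green tip, against 5.81 FPKM in the white base.

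DNA glycosylase transcripts were lower in the green tip as deposited, and under each of the 5 column scalings described further on. Apart from quantile normalization, these scalings shifted the green tip down, so they could not turn this direction. With quantile normalization ROS1 was close to equal, at a log2 ratio of -0.08. ROS1 also passed the filter used below only through its white base value. DME, which in Arabidopsis is known for demethylation in the central cell of the female gametophyte, had 12.3 FPKM in the green tip, against 30.3 FPKM in the white base. The white base value was 2.47 times that of the green tip. Within the green tip DME lay near the middle of the expressed genes, above 48.8% of them, whereas in the white base it lay above 75.3%. In bulk tissue, fewer cells that express a gene and less RNA per cell cannot be told apart.

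ROS1, the glycosylase that in Arabidopsis guards vegetative tissues against spreading silencing, was the lowest of the 4 genes in both tissues. It had 0.219 FPKM in the green tip, under the threshold for expression, and 0.822 FPKM in the white base, above only 4.32% of the genes expressed there. The ratio of white base to green tip, 3.75, was larger than that of DME, but it rests on values of less than 1 FPKM. On the scale of FPKM + 1 used below for log2 ratios, the difference shrank to a log2 ratio of -0.58. DML2 (Aco002923), the third glycosylase that the study named, was not among the 4 genes and had 5.45 FPKM in the green tip, against 10.6 FPKM in the white base.

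DME thus held most of the glycosylase transcript in both tissues. It made up 68.4% of the summed FPKM of DME, DML2 and ROS1 in the green tip, against 72.6% in the white base, and ROS1 made up 1.22% and 1.97%. The 3 genes summed to 17.9 FPKM in the green tip, against 41.7 FPKM in the white base, a white base level 2.32 times that of the green tip.

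The histone demethylases differed little between the tissues as deposited, and their direction depended on the scaling of the columns. LDL1 had 14.2 FPKM in the green tip, against 11.0 FPKM in the white base, a ratio of 1.29. LDL2 had 6.64 FPKM in the green tip, against 6.55 FPKM in the white base, a ratio of 1.01. JMJ14 (Aco010573), which like LDL1 and LDL2 demethylates lysine 4 of histone H3 but belongs to another enzyme class, had 25.4 FPKM in the green tip, against 24.7 FPKM in the white base. Among expressed genes LDL1 lay above 52.7% in the green tip and above 45.5% in the white base, and LDL2 above 34.1% and 32.5%. The 3 histone demethylases summed to 46.2 FPKM in the green tip, against 42.2 FPKM in the white base.

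**Figure D1:**
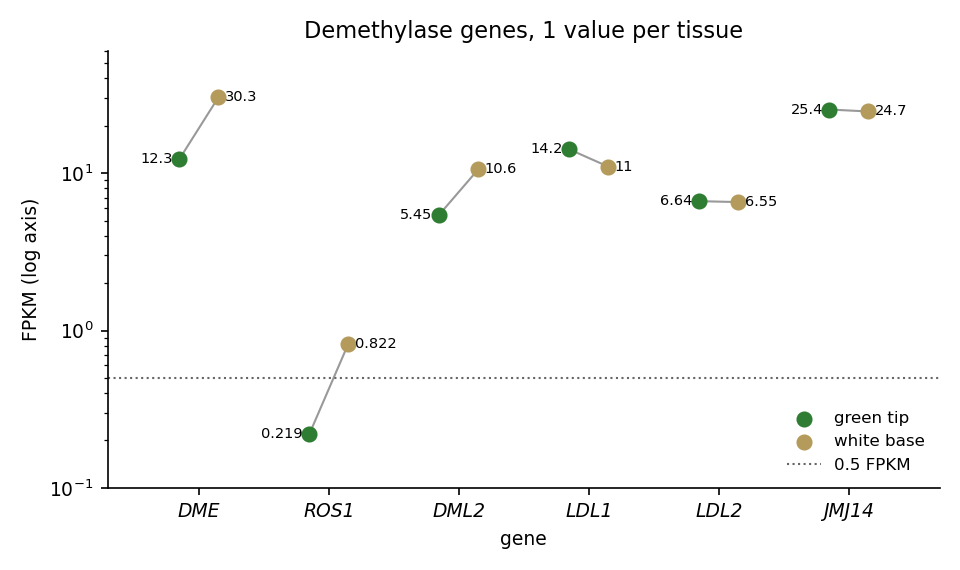
FPKM of the DNA glycosylases DME, ROS1 and DML2 and the histone demethylases LDL1, LDL2 and JMJ14 on a log axis. Each point is the authors' single value of a tissue, green tip on the left and white base on the right of each pair, and the dotted line is 0.5 FPKM. The glycosylases were lower in the green tip, with DME at 12.3 and 30.3 FPKM, while LDL2 had 6.64 and 6.55 FPKM.

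The order of the 6 demethylases therefore differed between the tissues. In the green tip it ran from JMJ14 through LDL1, DME, LDL2 and DML2 to ROS1. In the white base DME was first, followed by JMJ14, LDL1, DML2, LDL2 and ROS1. LDL1 and DML2 were close in the white base, at 11.0 and 10.6 FPKM, and so were DME and JMJ14, at 30.3 and 24.7 FPKM. In the green tip LDL1 and DME were close, at 14.2 and 12.3 FPKM, as were LDL2 and DML2, at 6.64 and 5.45 FPKM. With 1 value per tissue, none of these pairs can be called different. Among the 41 DNA methylation pathway genes that the study listed, DME ranked 17 in the green tip, against 8 in the white base, LDL1 14 and 25, LDL2 28 and 33, and ROS1 38 and 39.

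Differences were next placed on the log2 scale, as the ratio of green tip over white base on FPKM + 1. This was done for the 18372 genes whose mean exceeded 0.5 FPKM, and all 4 demethylases passed this filter. ROS1 passed it narrowly, with a mean of 0.521 FPKM, and only through its white base value, so that a lower green tip value was set by the filter. The log2 ratios were -1.24 for DME, -0.58 for ROS1, 0.34 for LDL1 and 0.02 for LDL2. DME alone was 2-fold or more lower in the green tip, so 1 of the 4 genes passed this size, against 20.7% of all genes tested. None of the 4 was 2-fold or more higher, against 17.2% of all genes. With 4 genes, these counts do not set the demethylases apart from the rest of the transcriptome. At 1.5-fold the count was again 1 lower and 0 higher, against 29.9% and 26.4% of all genes. When 0.1 rather than 1 was added to the FPKM, ROS1 joined DME, so 2 of the 4 genes were lower by 2-fold or more, against 23.9% of all genes, and 0 were higher, against 19.9%.

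Seen across the whole distribution, 17.1% of the genes had a lower log2 ratio than DME. The share was 30.0% for ROS1, 51.2% for LDL2 and 65.0% for LDL1, while the median of all genes was -0.01. Genes of a similar level were compared by the ratio with practically nothing added to FPKM, so these shares are not on the scale of those above. The scale matters for ROS1. With 0.01 rather than 1 added, 15.7% of all genes had a lower log2 ratio than ROS1. Among the 7013 genes with a mean FPKM within 2-fold of that of DME, 15.1% had a lower ratio of green tip to white base. Among the 1204 such genes around ROS1 the share was 29.0%. The filter at 0.5 FPKM removed nearly all genes with a mean below the 0.521 FPKM of ROS1, so this set lies mostly above its level. LDL1 and LDL2 were above 68.1% and 55.9% of the genes of their level.

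**Figure D2:**
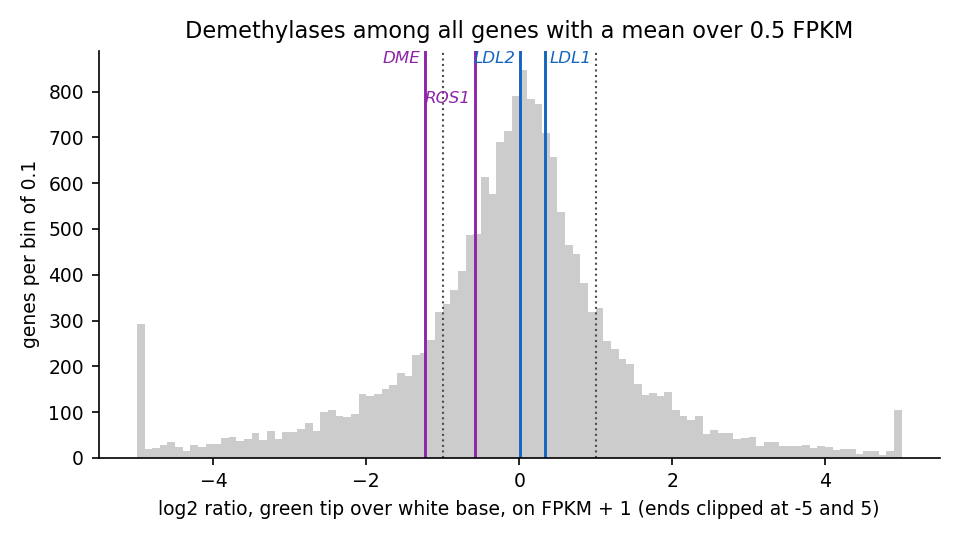
Histogram of log2 ratios, green tip over white base on FPKM + 1, for the 18372 genes whose mean exceeded 0.5 FPKM, in bins of 0.1 and clipped at the ends. Vertical lines mark DME, ROS1, LDL2 and LDL1, and dotted lines mark 2-fold. DME, at -1.24, lies beyond 2-fold on the side lower in the green tip, and the other genes lie within 2-fold.

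The contrast between the enzyme classes was next expressed as ratios of 2 genes within the same tissue, which do not depend on how the columns are scaled to each other. DME had 0.865 times the FPKM of LDL1 in the green tip, against 2.75 times in the white base. Against LDL2 the ratio of DME was 1.85 in the green tip, against 4.62 in the white base, and against JMJ14 it was 0.483 and 1.23. By these values DME was below LDL1 and JMJ14 in the green tip and above both in the white base. DML2 likewise had 0.822 times the FPKM of LDL2 in the green tip, against 1.62 times in the white base. These changes of order rest in part on ratios near 1, namely 0.865, 1.23 and 0.822. With 1 value per tissue, the genes of those pairs cannot be called different. The summed histone demethylases were 2.58 times the summed glycosylases in the green tip, against 1.01 times in the white base. Among the ratios within a class, LDL1 to LDL2 was 2.14 in the green tip, against 1.68 in the white base, DME to DML2 was 2.25 and 2.86, DME to ROS1 was 55.9 and 36.8, and DML2 to ROS1 was 24.9 and 12.9. The last of these moved about as much between the tissues as DML2 to LDL2, and it rests on the low values of ROS1.

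**Figure D3:**
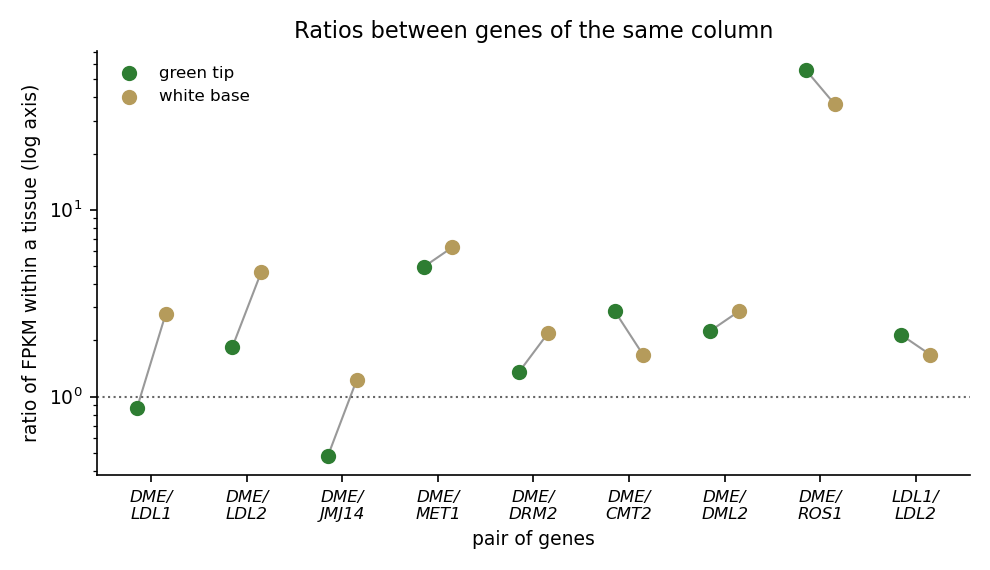
Ratio of FPKM of 2 genes within the green tip (left point of each pair) and within the white base (right point), on a log axis with a dotted line at 1. DME to LDL1 was 0.865 in the green tip, against 2.75 in the white base, and LDL1 to LDL2 was 2.14 and 1.68.

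DME was then set against the DNA methyltransferases, the enzymes whose product it removes. All 4 of them had lower FPKM in the green tip, against 50.5% of all genes as deposited. They were also lower under every scaling tried, though of these only quantile normalization did not shift the green tip down. By 2-fold or more 2 of the 4, CMT2 and CMT3, were lower, against 20.7% of all genes. CMT3 passed the filter at 0.5 FPKM only through its white base value, so a lower green tip value was set by the filter. With TPM, which brings both columns to an equal sum, all 4 were lower by 2-fold or more, against 42% of all genes. MET1 (Aco005236), which copies CG methylation after replication, had 2.48 FPKM in the green tip, against 4.81 FPKM in the white base, so that DME was 4.94 and 6.29 times its level. DRM2 (Aco007653), the methyltransferase of RdDM, had 9.03 and 13.9 FPKM, and DME was 1.36 times its level in the green tip, against 2.18 times in the white base. CMT2 (Aco015994), a chromomethylase that sets CHH methylation, had 4.28 and 18.2 FPKM. Against it DME moved the other way, with a ratio of 2.87 in the green tip, against 1.66 in the white base. CMT3 (Aco013381), which maintains CHG methylation, was at 0.0488 FPKM in the green tip, against 12.4 FPKM in the white base.

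Summed over the family, glycosylases were 1.13 times the methyltransferases in the green tip, against 0.846 times in the white base. Without CMT3 these values were 1.14 and 1.13, so that the tissues no longer stood apart in this ratio. LDL1, in contrast, had 5.71 times the FPKM of MET1 in the green tip, against 2.29 times in the white base, and 1.57 and 0.791 times the FPKM of DRM2.

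Among the other 37 genes of the DNA methylation pathway, 35 had a mean over 0.5 FPKM. Of these, 26 were lower and 9 higher in the green tip at any size, against 50.5% and 49.5% of all genes, and their median log2 ratio was -0.53. At 2-fold or more, 5 of the 35 were lower in the green tip and 1 was higher, against 20.7% and 17.2% of all genes, so that the count at this size does not set the pathway apart. With TPM these counts were 24 and 0, against 42% and 8.97% of all genes, and 33 of the 35 were lower at any size, against 77.9%. Beside CMT2 and CMT3, the genes at least 2-fold lower were DCL2 (Aco016157), a Dicer, with 7.79 FPKM in the green tip, against 32.9 FPKM in the white base, NRPD2/NRPE2 (Aco009438), the shared second subunit of Pol IV and Pol V, with 21.0 and 43.1 FPKM, and RDR6 (Aco016551), an RNA-dependent RNA polymerase, with 3.16 and 7.39 FPKM. RDR6 was within 2-fold after quantile normalization, at a log2 ratio of -0.66. RDM1 (Aco004257), a component of the complex that recruits Pol V, was the gene at least 2-fold higher, with 7.21 and 2.90 FPKM. Its log2 ratio was 0.36 with TPM. It also fell under 2-fold, to 0.93, with a sum scaling that left out the 100 highest genes of either tissue. That scaling put 10 of the 35 genes at least 2-fold lower and 0 higher, against 4325 and 2716 of all 18372 genes. The glycosylases lay on the side of the pathway median, and LDL1, LDL2 and JMJ14 were among the 11 of 39 pathway genes with a higher value in the green tip as deposited.

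**Figure D4:**
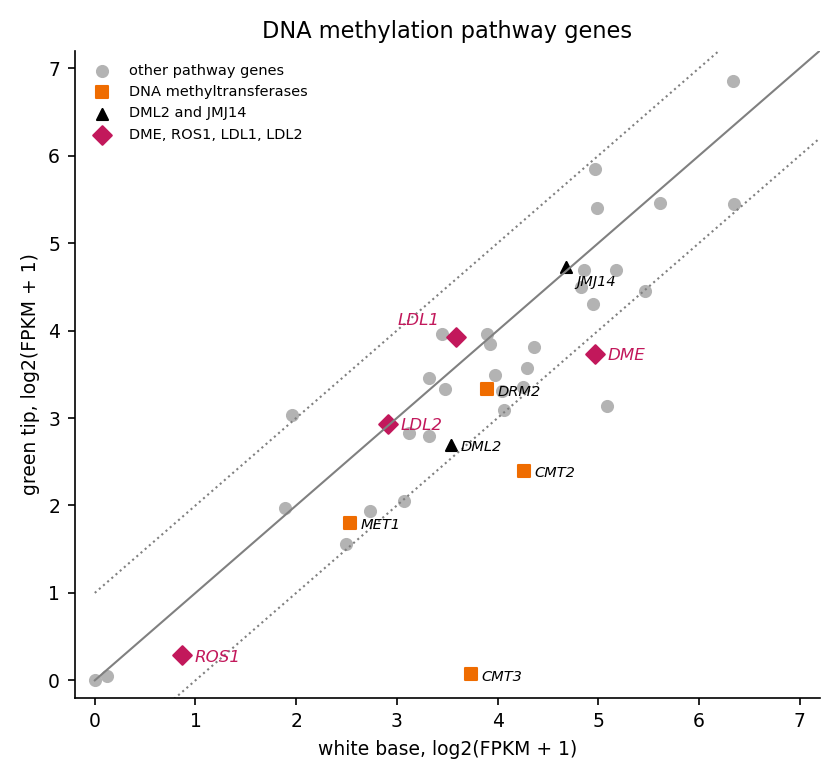
Green tip against white base, as log2(FPKM + 1), for the 41 DNA methylation pathway genes, 1 point per gene. The solid line marks equal values and the dotted lines 2-fold. DME lies below the lower dotted line, as do CMT2, CMT3, DCL2, NRPD2/NRPE2 and RDR6. LDL1 and LDL2 lie on or above the line of equal values with the FPKM as deposited.

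The pathway genes nearest to each demethylase were taken from the other 37, by the distance between log2(FPKM + 1) values over the 2 tissues. For LDL1 the nearest was UBP26 (Aco013188), a histone H2B deubiquitinase, at a distance of 0.14, with 14.6 FPKM in the green tip, against 9.95 FPKM in the white base. It was followed by SUVH2/9 (Aco026941) at 0.31. For LDL2 the nearest were NRPD1 (Aco015559), the largest subunit of Pol IV, at 0.23 and the VIM gene Aco016212 at 0.43. DME had no near partner in the list, with the histone deacetylase HDA6 (Aco016535) at 0.57 and DCL2 at 0.60. ROS1 was nearest to MORC6 (Aco020316) at 0.78 and NRPE9B (Aco027798) at 0.91, which were themselves below 0.1 FPKM or listed at 0 in both tissues. The measure rests on 2 values per gene, and many genes share it. Within 0.25 log2 units in both tissues there were 109 other genes around DME, 151 around ROS1, 428 around LDL1 and 289 around LDL2.

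The direction of LDL1 and LDL2 depended on the scaling of the columns. The summed FPKM of the green tip was 1.86 times that of the white base. When both columns were brought to an equal sum (TPM), the log2 ratios were -0.50 for LDL1 and -0.78 for LDL2, both lower in the green tip. For LDL2 the sign also turned with upper-quartile scaling, to -0.0016, and with a sum scaling that left out the 100 highest genes of either tissue, to -0.14. JMJ14 turned to -0.83 with TPM and to -0.14 with that sum scaling. DME was lower in the green tip by 2-fold or more under every scaling tried, between -2.10 with TPM and -1.20 with quantile normalization. ROS1 was lower in the green tip under all of them and between -0.98 and -0.08. Apart from quantile normalization, these scalings shifted the green tip down, so they could not move DME or ROS1 toward 0. Relative to the median of all genes, which TPM moved to -0.80, LDL1 was 0.31 above and LDL2 0.03 above, against 0.35 and 0.03 with the values as deposited. For DME the difference from this median was -1.30 with TPM and -1.23 as deposited. TPM multiplies each column by 1 factor, so the place of a gene among all genes can move only through the 1 added to FPKM. These small shifts are therefore no check of the result. For ROS1, where the added 1 weighs most, the share of genes with a lower log2 ratio was 42.9%, against 30.0% as deposited.

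**Figure D5:**
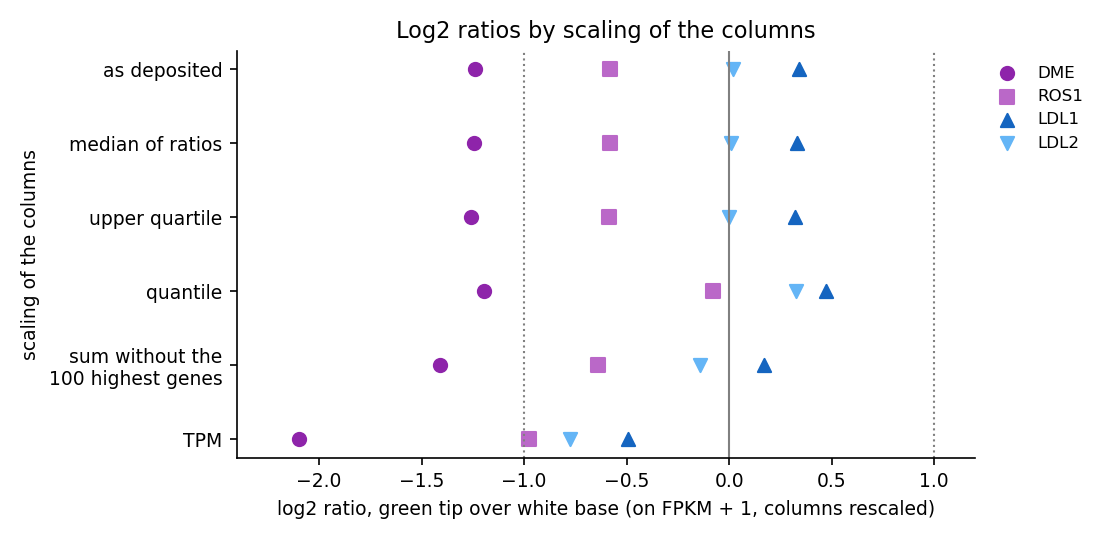
Log2 ratio, green tip over white base, for DME, ROS1, LDL1 and LDL2 with the columns as deposited and under 5 scalings. The solid line marks equal values and the dotted lines 2-fold. DME stays below -1 throughout, from -1.20 to -2.10, whereas LDL2 lies on both sides of 0, from 0.32 with quantile normalization to -0.78 with TPM.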

How the data were processed

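RNA-seq of both leaf tissues, 2 libraries each by the labels, was analysed from the deposited matrix of FPKM values. The authors' methods state trimming with Trimmomatic, alignment with HISAT2, uniquely mapped reads and quantification with StringTie, whereas the submitters' processing notes name TopHat2 2.1.0, Cufflinks and Cuffdiff 2.2.1. Which of these made the deposited FPKM, and how the 2 libraries were merged into 1 value, is not given in the sources used here. The matrix has 3 value columns, the 2 tissues and their mean, for 27024 genes.

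FPKM values carry no read counts, so no interval is given. Among 226 genes under a mean of 0.1 FPKM and above 0 in both tissues, 13 shared a bin of the ratio of green tip to white base (log2 width 0.01) at 1.31. The 50 bins around it held at most 4. The bin was picked as the fullest, so it exceeds its neighbours by selection. Whether it reflects a common step was not tested, and reads per gene were not recovered. With 1 value per tissue, no test was made, and differences were judged by a 2-fold size on FPKM + 1.

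The demethylases and the lists were chosen with earlier results of these data known. Genes named are the 4 demethylases, the other glycosylases, histone demethylases and methyltransferases, the 2 nearest pathway genes of each demethylase, the tissue check genes and other pathway genes at 2-fold or more. SUVH4 and DDM1 in the closing section were chosen after their values were seen. Pathway genes and their names are those of the study, while their grouping into glycosylases, histone demethylases, methyltransferases and other lists was made here by enzyme function. None of the identifiers matched the RefSeq gene table, so no sequence or position is printed. Alternatives were the pseudocount, the filter, 5 scalings, the fold and the composition of the summed lists.

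Python 3.11.15, numpy 2.4.6, pandas 2.3.3, scipy 1.17.1 and matplotlib 3.10.9 were used, and the functions were tested on simulated data.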

Additional observations from a re-analysis of the deposited data

How the results depend on the processing

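No paired analysis was possible because each tissue has a single column, and libraries could not be left out for the same reason. Log2 ratios were judged by sign and 2-fold, and counts and ratios of sums by a change of 1.5 times. DME kept its sign and its side of 2-fold in the 7 settings that can change its log2 ratio, 2 pseudocounts and 5 scalings. Most of these could only move DME further from 0. A smaller pseudocount enlarges the ratio of any gene that is lower. Apart from quantile normalization, the scalings shifted the green tip down, by log2 values from -0.0085 to -0.89. Quantile normalization alone moved DME toward 0, to -1.20. The filters leave DME as it is by construction. ROS1 passed 2-fold with smaller pseudocounts, at -1.53 with 0.1 and -1.86 with 0.01, which made 2 of the 4 genes lower in the green tip under each, because a pseudocount of 1 exceeds both of its FPKM values. ROS1 has no value with a mean over 1 FPKM. TPM reversed LDL1 to -0.50 and LDL2 to -0.78. LDL2 was also reversed by upper-quartile scaling (-0.0016) and by sum scaling without the 100 highest genes (-0.14), and the cause of the unequal sums was not tested. Over all genes, TPM gave 7725 lower and 1648 higher in the green tip, against 3812 and 3169, and 1.5-fold gave 4848 higher. The glycosylase to methyltransferase ratio moved by less than 1.5 times with DME and ROS1 alone, to 0.788 in the green tip, against 0.631 in the white base.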

Other observations

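Chromatin genes that work beside the demethylases in Arabidopsis were compared with them within each tissue. HDA6, a histone deacetylase that forms complexes with LDL1 and LDL2 in Arabidopsis, had 18.7 FPKM in the green tip, against 29.8 FPKM in the white base. LDL1 had 0.758 times the FPKM of HDA6 in the green tip, against 0.370 times in the white base, and LDL2 had 0.355 and 0.220 times. SUVH4 (Aco004654), which methylates lysine 9 of histone H3 and works with CMT3, had 0.652 times the FPKM of LDL1 in the green tip, against 1.64 times in the white base. DDM1 (Aco027111), a remodeller needed for methylation of transposons, went the other way from DME. It had 56.4 FPKM in the green tip, against 30.2 FPKM in the white base, 4.60 times the FPKM of DME in the green tip, against 0.999 times in the white base. The direction of DDM1 between the tissues was no longer seen with TPM, at a log2 ratio of 0.0045. These ratios carry no replicate error.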
